A study of Mus musculus with 19 samples.

Results

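The genes described here are 10 marker genes of T cells, chosen by symbol from the 24348 genes counted in each library: the CD3 chain genes Cd3d, Cd3e and Cd3g, the adhesion receptor gene Cd2, the kinase gene Lck, the coreceptor genes Cd4, Cd8a and Cd8b1, the transcription factor gene Foxp3 and the interleukin-7 receptor gene Il7r. All 10 were present in the files and all 10 passed the filter on low counts. They were measured in 19 libraries of poly-adenylated RNA, sequenced from perigonadal adipose tissue, taken whole, of C57BL/6 mice. The mice gained weight in 1 of 2 models, a 60% high-fat diet (HFD) or Ensure, a liquid nutrition drink. HFD fed (n = 4) and Ensure fed (n = 6) libraries came from mice at peak weight that were fed, and HFD fasted (n = 4) and Ensure fasted (n = 5) libraries from mice that then spent 24 hours without food. The groups share strain and tissue, no genetic change is named for any of them, and no lean group is among the 19 libraries. The labels do not say whether each library is a separate mouse, so a p-value here covers the spread between libraries, which may be technical. Each library is called by its group and its title's number.

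T cells recognise antigen through a receptor whose signal is carried into the cell by the CD3 chains. Lck phosphorylates those chains, and CD4 or CD8 brings Lck to the receptor, CD4 on helper and regulatory T cells and CD8 on cytotoxic T cells. Foxp3 directs the regulatory T cell programme, interleukin-7 keeps naive and memory T cells alive through the receptor that Il7r encodes, and CD2 is an adhesion receptor of T and natural killer cells. Adipose tissue holds resident T cells of all these kinds beside a much larger macrophage population. Several of the genes are not restricted to T cells: Cd4 is also transcribed by some mouse macrophages and dendritic cells, Cd8a by some dendritic cells, and Il7r by innate lymphoid cells.

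The promoters of Il7r, a gene whose level differed between the diets, and of the 3 CD3 genes, which edgeR's test called in no comparison (limma called Cd3e between the fed diets), are shown for reference. They come from RefSeq on build GRCm38.p6, which held a promoter for 7 of the 10 genes, each running from 250 bases before to 50 bases after the gene start and printed 5′ to 3′ on the strand of the gene. Capitals mark, on either strand, the ETS core GGAAG, the RUNX core TGTGGT and the TATA box TATAAA.
Il7r: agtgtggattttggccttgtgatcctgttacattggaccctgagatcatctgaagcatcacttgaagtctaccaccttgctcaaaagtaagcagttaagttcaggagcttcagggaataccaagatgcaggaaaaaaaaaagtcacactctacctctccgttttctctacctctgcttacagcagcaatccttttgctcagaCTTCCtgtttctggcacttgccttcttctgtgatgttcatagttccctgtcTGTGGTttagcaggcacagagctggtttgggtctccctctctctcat
Cd3d: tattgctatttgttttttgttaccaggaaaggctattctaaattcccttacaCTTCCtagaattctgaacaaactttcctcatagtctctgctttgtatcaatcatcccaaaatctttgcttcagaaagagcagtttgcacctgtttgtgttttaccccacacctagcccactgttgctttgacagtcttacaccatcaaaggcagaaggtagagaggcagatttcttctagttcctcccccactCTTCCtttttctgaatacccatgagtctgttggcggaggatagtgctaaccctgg
Cd3e: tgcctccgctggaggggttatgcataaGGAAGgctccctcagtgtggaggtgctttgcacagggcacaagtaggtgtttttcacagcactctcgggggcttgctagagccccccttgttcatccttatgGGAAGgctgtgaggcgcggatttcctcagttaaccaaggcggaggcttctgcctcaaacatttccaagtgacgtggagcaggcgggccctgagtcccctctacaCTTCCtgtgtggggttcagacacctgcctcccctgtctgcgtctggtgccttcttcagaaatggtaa
Cd3g: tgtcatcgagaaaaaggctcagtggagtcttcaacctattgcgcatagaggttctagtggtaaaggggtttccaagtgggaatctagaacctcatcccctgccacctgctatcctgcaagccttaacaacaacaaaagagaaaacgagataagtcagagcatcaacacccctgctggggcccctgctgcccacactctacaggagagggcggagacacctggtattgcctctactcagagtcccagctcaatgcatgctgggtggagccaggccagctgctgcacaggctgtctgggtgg
The Il7r window (chr15:9529827-9530126, minus strand) held 1 ETS core and 1 RUNX core. The Cd3d window (chr9:44981536-44981835, plus strand) held 2 ETS cores, the Cd3e window (chr9:45009562-45009861, minus strand) 3, and the Cd3g window (chr9:44980382-44980681, minus strand) had none of the 3 motifs. Cd3d and Cd3g start 1355 bases apart and are transcribed away from each other, and Cd3e starts 27825 bases from Cd3d. Of 32851 mouse promoter windows of the same length, 71.4% held an ETS core, 16.8% a RUNX core and 13.6% a TATA box, so these matches describe the letters and no binding was measured.

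Reads assigned to genes numbered 12.82 to 22.55 M per library (median 20.23 M). Levels are given as counts per M counts, scaled by the trimmed mean of M-values (CPM); 3 counts, used as the floor, came to 0.124 to 0.210 CPM. The adipocyte gene Adipoq stood at 1112 to 4138 CPM, so this defining gene of fat cells was abundant in every library. In 5 libraries the summed level of 15 epididymis and testis genes was 200 CPM or more: HFD fasted 24, Ensure fed 10 and 12, and Ensure fasted 2 and 5, the last with 9930 CPM. Cdh16, an epithelial gene, reached 30 CPM or more in 6 libraries, and 8 libraries met one of the 2 criteria. All 8 HFD libraries were sequenced in lane 7, with 1 Ensure library, Ensure fed 18, so diet and lane largely cannot be told apart.

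The 9 genes other than Il7r were low in every library. Their counts in a library ran from 3 (Cd8b1 and Foxp3) to 410 (Cd4), whereas Il7r had 34 to 3185. Per kilobase of exon, Il7r had the highest mean level in HFD fed fat, at 12.5 ± 5.62 CPM per kb (SD, n = 4), and Foxp3 the lowest, at 0.174 ± 0.0485. In Ensure fed fat the order was different at the top: Cd4 stood first, at 3.94 ± 2.02 CPM per kb (SD, n = 6). It was followed by Cd2 at 2.44 ± 0.279, Cd3g at 1.75 ± 0.607, Lck at 1.33 ± 0.443 and Il7r at 1.28 ± 0.527. The SDs of Cd4 and Cd2 overlapped there, so their order was within the spread of the libraries.

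**Figure D1:**
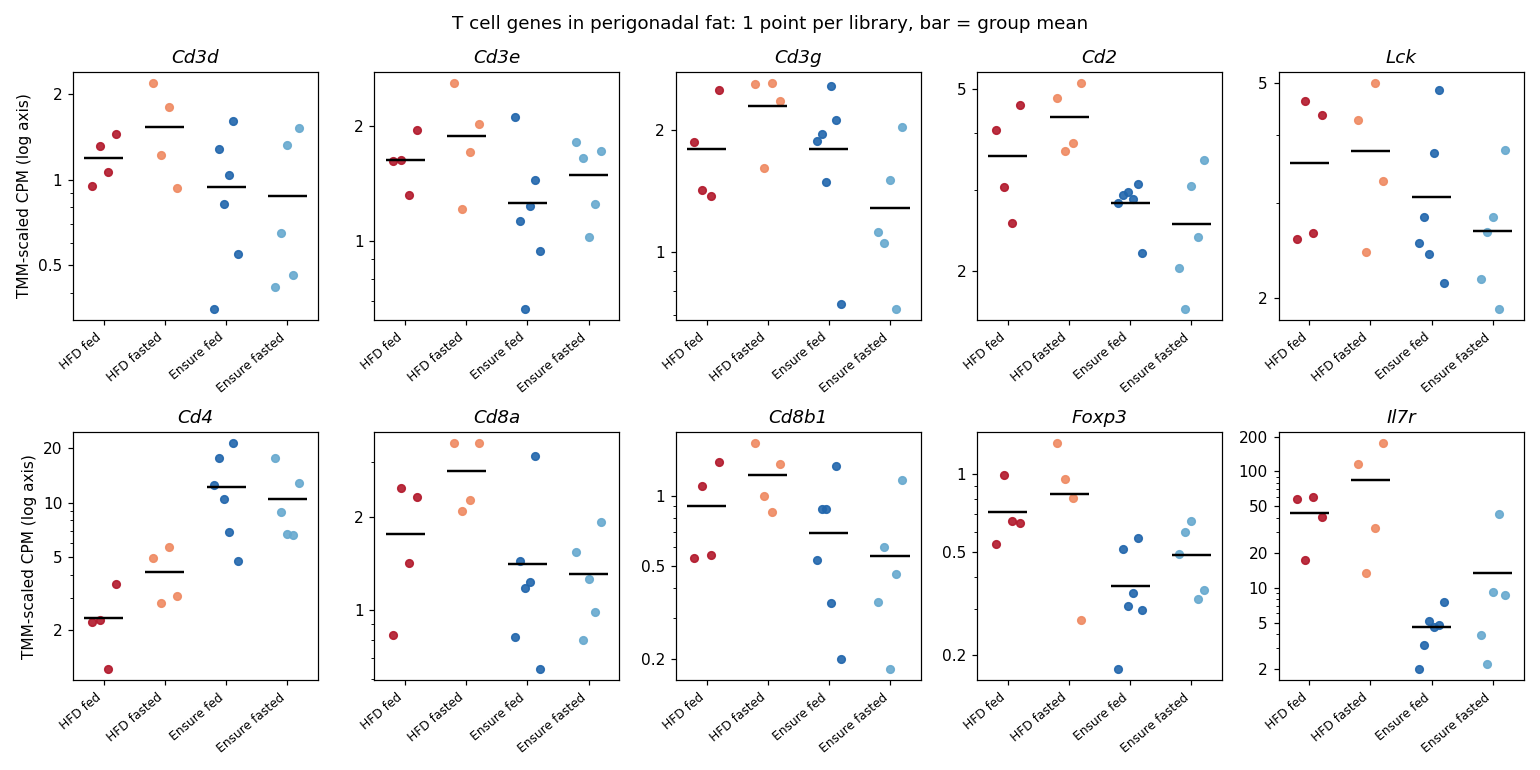
Level of each of the 10 T cell genes (TMM-scaled CPM, log axis) by group, 1 point per library, with the group mean as a bar. In the fed groups Cd4 is higher and Il7r lower in every Ensure than in every HFD library; Ensure fed 18 for Cd4 and Ensure fasted 8 for Il7r lie within the range of HFD fasted libraries.

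The CD3 chains, which carry the signal of the receptor, had low levels with overlapping ranges in the 4 groups. Summed over Cd3d, Cd3e and Cd3g, the level was 4.61 ± 0.912 CPM in HFD fed (SD, n = 4), 5.70 ± 1.39 in HFD fasted (n = 4), 3.99 ± 1.14 in Ensure fed (n = 6) and 3.66 ± 1.04 in Ensure fasted libraries (n = 5). The groups overlapped, between 2.24 CPM in the lowest library, Ensure fed 18, and 7.36 CPM in the highest, HFD fasted 23. Single chains rested on few reads, Cd3d on 6 to 43 per library, and the ratio of Cd3d to Cd3e ran from 0.167 to 1.29. In whole tissue, fewer T cells and less RNA per T cell cannot be told apart.

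Cd2 and Lck stayed close to the CD3 sum. The ratio of Lck to the CD3 sum was 0.579 to 1.06 over the 19 libraries, with group means of 0.655 to 0.783, and that of Cd2 was 0.493 to 1.00, with group means of 0.706 to 0.786. Cd2 alone stood at 3.65, 3.80, 4.77 and 5.15 CPM in HFD fasted fat, and at 1.65, 2.03, 2.37, 3.07 and 3.50 CPM in Ensure fasted fat. All 4 HFD fasted libraries were thus above all 5 Ensure fasted ones, while the fed groups, at 2.54 to 4.60 and 2.19 to 3.10 CPM, overlapped.

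The genes whose profile over the 19 libraries was nearest to that of the CD3 sum were largely lymphocyte genes. Likeness was measured as the root mean square difference of centred log2(CPM + 0.5) values, for which the CD3 sum itself had an SD of 0.391. The nearest was Gimap3, a GTPase gene of lymphocytes, at 0.157, and others among the 8 nearest were Sept1 at 0.201, the chemokine receptor gene Cxcr3 at 0.211, the adaptor gene Grap2 at 0.218, the chemokine receptor gene Cxcr6 at 0.221, Tbc1d10c at 0.232 and the adaptor gene Sla2 at 0.234.

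The CD8 genes had lower means in both Ensure groups than in either HFD group. Cd8a, the chain common to both forms of CD8, stood at 2.09, 2.26, 3.45 and 3.45 CPM in HFD fasted and at 0.800, 0.988, 1.26, 1.54 and 1.93 CPM in Ensure fasted fat, 2 groups that did not overlap. In fed fat it ran from 0.829 to 2.47 CPM with HFD and from 0.646 to 3.15 CPM with Ensure, where Ensure fed 16 stood far above the other 5 libraries, which reached 1.44 CPM. Cd8b1, the chain that marks conventional cytotoxic T cells, averaged 0.899 ± 0.422, 1.22 ± 0.370, 0.694 ± 0.420 and 0.552 ± 0.377 CPM in the groups taken in the order HFD fed, HFD fasted, Ensure fed, Ensure fasted. It had 3 to 33 counts a library, and its ratio to Cd8a had group means of 0.435 to 0.522.

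Foxp3 was the rarest transcript, with 3 to 26 counts per library. It stood at 0.539, 0.651, 0.660 and 0.998 CPM in HFD fed fat, and in Ensure fed fat its lowest, median and highest values were 0.176, 0.327 and 0.569 CPM. After fasting it was 0.274, 0.812, 0.956 and 1.32 CPM with HFD and 0.329 to 0.662 CPM with Ensure. Its mean ratio to the CD3 sum was 0.159, 0.150, 0.0961 and 0.140 in the same order of groups, with overlapping ranges.

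Cd4, the coreceptor gene of helper T cells, was higher with Ensure when fed libraries were set against fed and fasted against fasted ones. It stood at 1.22, 2.20, 2.26 and 3.58 CPM in HFD fed fat and at 2.82, 3.07, 4.97 and 5.68 CPM in HFD fasted fat. In Ensure fed fat the lowest, median and highest values were 4.77, 11.5 and 21.2 CPM, and Ensure fasted libraries had 6.65, 6.75, 8.85, 12.8 and 17.6 CPM. Within fed and within fasted fat the diets did not overlap, although Ensure fed 18, at 4.77 CPM, was below 2 HFD fasted libraries.

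Relative to other T cell genes, Cd4 was also higher with Ensure. Its ratio to the CD3 sum was 0.324 to 0.930 in the 8 HFD libraries and 1.42 to 5.23 in the 11 Ensure libraries. Its ratio to Cd8a averaged 1.49 ± 0.833 in HFD fed (SD, n = 4), 1.55 ± 0.685 in HFD fasted (n = 4), 9.33 ± 3.67 in Ensure fed (n = 6) and 8.24 ± 2.79 in Ensure fasted libraries (n = 5). The highest ratio with HFD was 2.65 and the lowest with Ensure 5.33, so the diets were apart in both states.

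Il7r differed in the other direction, and its coefficient of variation over the 19 libraries, 141%, was the highest of the 10 genes. It stood at 17.4, 41.0, 57.8 and 60.9 CPM in HFD fed fat and at 13.5, 32.9, 116 and 174 CPM in HFD fasted fat. In Ensure fed fat the lowest, median and highest values were 2.00, 4.70 and 7.50 CPM, and in Ensure fasted fat the 5 values were 2.20, 3.92, 8.68, 9.09 and 43.1 CPM. The fed groups did not overlap, and the fasted groups overlapped through 1 library, Ensure fasted 8.

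Relative to the CD3 chains, Il7r was higher in fed HFD than in fed Ensure fat. Its ratio to the CD3 sum ran from 4.0 to 16.2 in the former and from 0.459 to 3.36 in the latter. It averaged 10.0 ± 5.57 and 14.3 ± 13.5 in HFD fed and fasted libraries, against 1.36 ± 1.06 and 4.70 ± 7.28 in Ensure fed and fasted ones. The last mean rested on Ensure fasted 8, at 17.7, the other 4 libraries having 0.657 to 2.36.

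**Figure D2:**
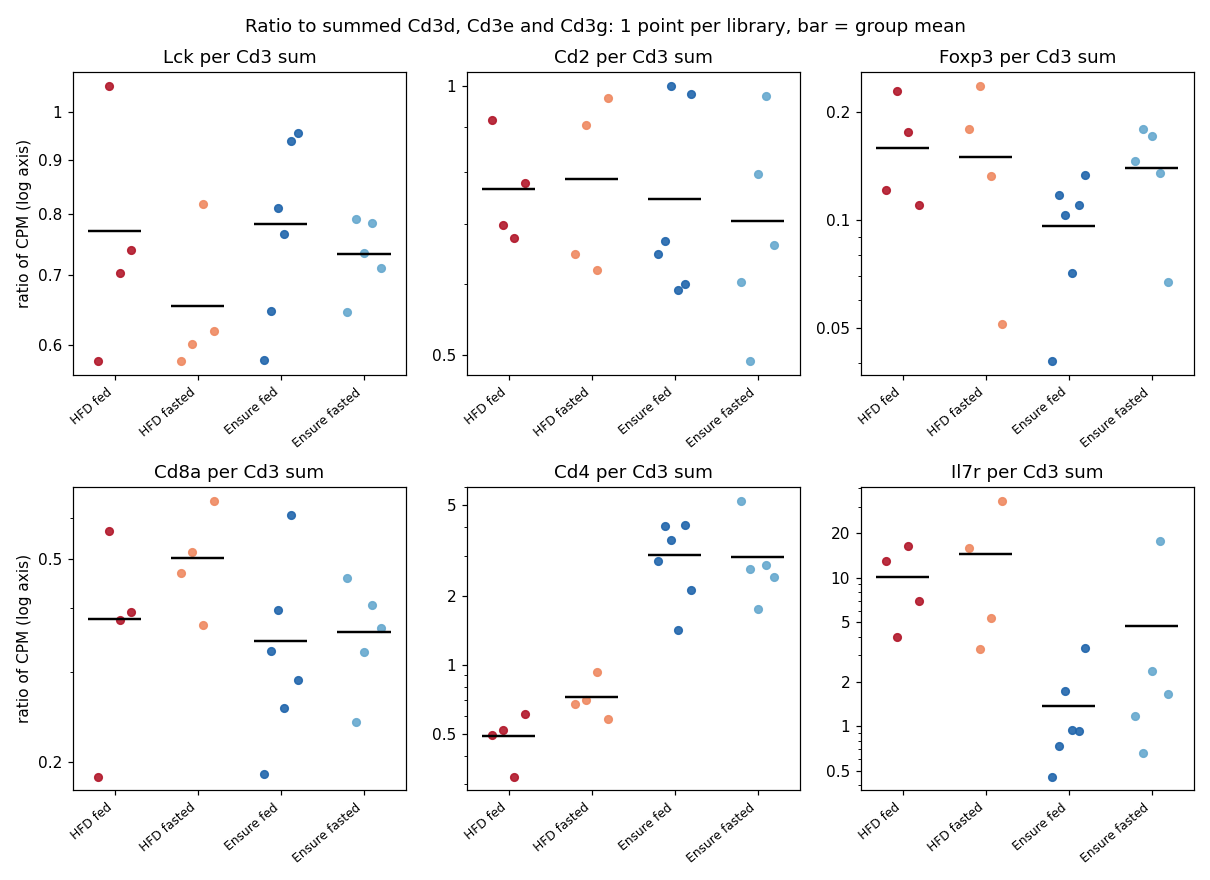
Ratio of 6 T cell genes to the summed CPM of Cd3d, Cd3e and Cd3g (log axis), 1 point per library, with the group mean as a bar. The ratios of Lck and Cd2 lie in similar ranges in all 4 groups, that of Cd4 is 1.42 to 5.23 in the Ensure and 0.324 to 0.930 in the HFD libraries, and that of Il7r has its highest group means with HFD (10.0 fed and 14.3 fasted).

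The genes nearest to Il7r and Cd4 were looked up in the same way, a choice made after their values were seen. Nearest to Il7r, whose SD was 1.88, were Trem2, a lipid receptor gene of macrophages, at 0.362, then F7 at 0.370, Rgs1 at 0.396 and Atf3 at 0.432. Itgax, which encodes the integrin CD11c of macrophages and dendritic cells, was among the 8 nearest, at 0.575. Trem2 was highest in HFD fasted 28, at 690 CPM, the library with the most Il7r, and reached 101 CPM in Ensure fasted 8 against 6.05 to 19.3 CPM in the other 4 Ensure fasted libraries. No gene was as near to Cd4, whose SD was 1.04. The closest were D730005E14Rik at 0.584 and Aoah, a lipid hydrolase gene of myeloid cells, at 0.591. The rest of the 8 nearest were Gbp2b at 0.593, Ctgf at 0.608, Marcksl1 at 0.609 and Siglece at 0.617. Jchain, a gene of antibody-secreting cells, at 0.618 and Eln at 0.636 completed them.

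**Figure D3:**
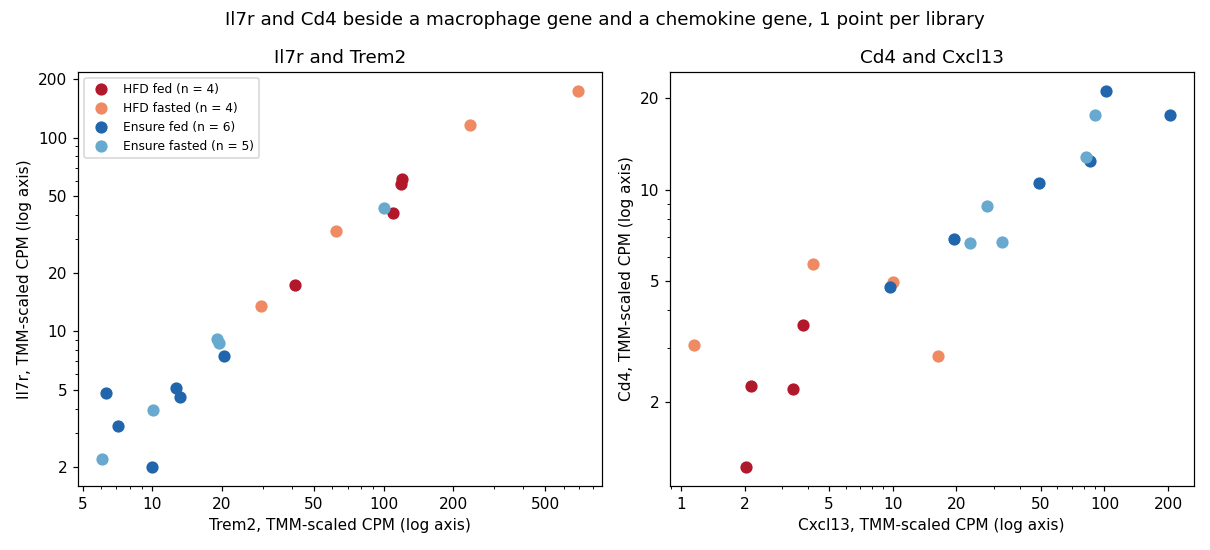
Il7r against Trem2 and Cd4 against Cxcl13 (all as TMM-scaled CPM, log axes), 1 point per library, coloured by group. Trem2 was the gene nearest to Il7r, whereas Cxcl13 was not among the 8 nearest to Cd4. Cd4 and Cxcl13 were both called between the fed diets with edgeR. Ensure fasted 8 lies among the HFD libraries in the first panel, with 43.1 CPM of Il7r and 101 CPM of Trem2, and most Ensure libraries have more of both genes than the HFD libraries in the second, Ensure fed 18 (4.77 CPM of Cd4, 9.69 CPM of Cxcl13) lying among the HFD ones.

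The first comparison was that of fasted with fed mice on HFD. No T cell gene passed edgeR's quasi-likelihood F test at an adjusted p under 0.05 (0 of 10, against 1.22% of the 16015 genes tested, 0.187% higher and 1.03% lower), and none had an unadjusted p under 0.05; limma also called none, and DESeq2 none, though it gave 8 of the genes no adjusted p. All 10 estimates were positive, of which 4 (Cd3e, Cd2, Cd8b1 and Il7r) were negative with limma, with a median log2 fold change of 0.36, beside 0.06 over all genes. The estimates were 0.84 ± 0.45 (SE) for Cd4, 0.93 ± 0.78 for Il7r, 0.67 ± 0.45 for Cd8a and 0.08 ± 0.31 for Lck. None of the 10 separated the fed from the fasted libraries, which 8.45% of all genes did (2.24% higher and 6.21% lower after fasting). The B cell genes (12 listed) had a summed level of 36.3 to 64.7 CPM after fasting and 18.5 to 43.9 CPM before it, and their part in these values was not tested.

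With Ensure, fasting also left the 10 genes without a call, although 20.3% of all genes passed (10.6% higher and 9.77% lower). Of the estimates 3 were positive and 7 negative, with a median log2 fold change of -0.13 beside 0.11 over all genes. The largest was Il7r, at 1.55 ± 0.70 (SE), with an unadjusted p of 0.0419 and an edgeR adjusted p of 0.123. It rested on Ensure fasted 8: without that library the log2 fold change was 0.35, with an adjusted p of 0.711. Cd4 differed by -0.22 ± 0.38 and Cd3g by -0.47 ± 0.31, and DESeq2 and limma called none of the 10. No T cell gene separated the fed from the fasted libraries, whereas 15% of all genes did (5.68% higher and 9.28% lower).

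The fasting responses of the diets were compared in the same fit. No T cell gene passed, none had an unadjusted p under 0.05, and neither did any of the 16015 genes pass (0%); DESeq2 and limma called no T cell gene, DESeq2 giving an adjusted p for 1 of them. The differences, Ensure minus HFD, had a median of -0.45 on the log2 scale beside 0.04 over all genes. They were -1.05 ± 0.59 (SE) for Cd4, -0.83 ± 0.48 for Cd3g, -0.79 ± 0.60 for Cd8a and 0.62 ± 1.04 for Il7r. Their standard errors ran from 0.33 for Cd2 to 1.04 for Il7r.

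Between the diets in fed fat, 2 of the 10 genes passed, 1 in each direction, against 4.26% of all genes (2.09% higher and 2.17% lower with Ensure). Cd4 was 5.27-fold higher with Ensure, a log2 fold change of 2.40 ± 0.44 (SE) with an edgeR adjusted p of 0.00627. Il7r was 9.70-fold lower, with a log2 fold change of -3.28 ± 0.74 and an adjusted p of 0.0195. In both genes all 6 Ensure fed libraries lay on 1 side of all 4 HFD fed ones, as did 13.3% of all genes (5.89% higher and 7.37% lower). The other 8 genes did not pass: Foxp3 had -0.93 ± 0.40, with an unadjusted p of 0.0324 and an adjusted p of 0.212, and Cd3g -0.00064 ± 0.33. DESeq2 called the same 2 genes, and limma 5, adding Cd2, Cd3e and Foxp3, all lower with Ensure.

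Both calls were lost with lane as a term, a fit that links the diets only through 1 Ensure library, Ensure fed 18. Its diet estimate therefore rests on that 1 library, whose own deviation cannot be told from an effect of diet or lane. In lane 7, the lane that holds both diets, the 4 HFD fed libraries had 1.22 to 3.58 CPM of Cd4 and Ensure fed 18 had 4.77; for Il7r the values were 17.4 to 60.9 and 7.50 CPM. With lane as a term the log2 fold changes were 1.04 for Cd4 and -2.56 for Il7r and neither was called, while the calls over all genes dropped from 682 to 2. Without the 8 libraries rich in tract or epithelial genes they were 2.31 and -3.19, with adjusted p of 0.0596 and 0.0631.

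**Figure D4:**
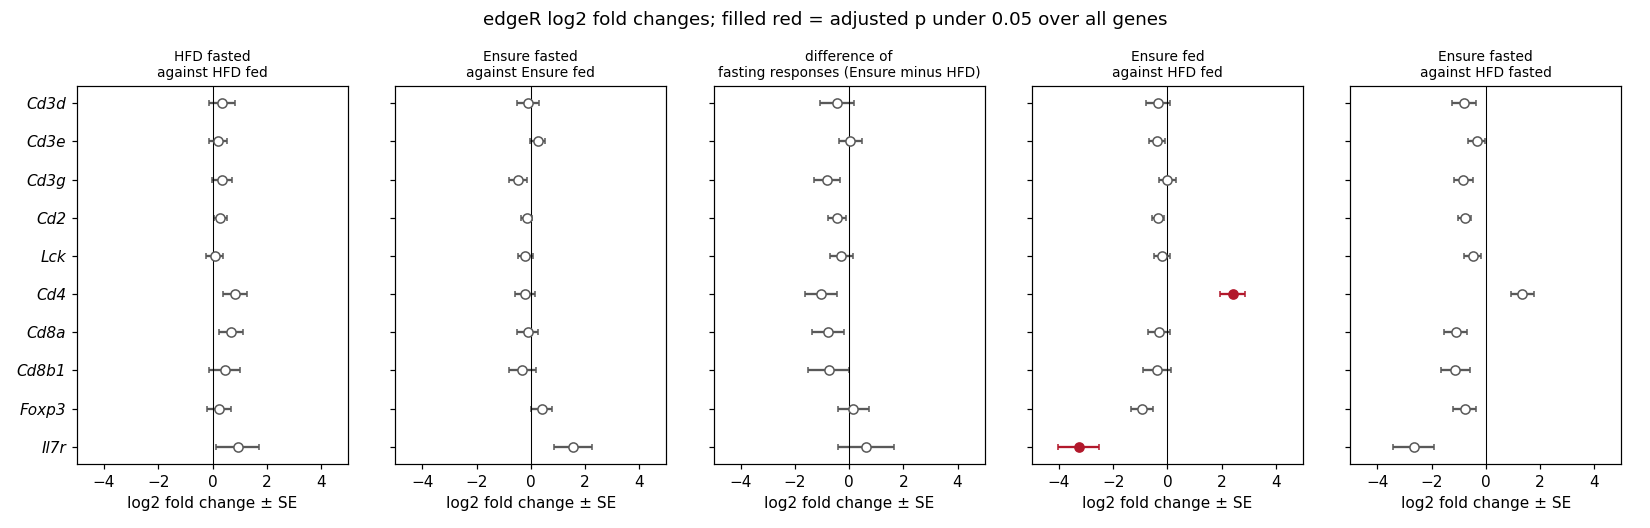
Log2 fold change with its standard error of each T cell gene in the 5 comparisons, from edgeR; filled red points passed an adjusted p under 0.05 over all genes. Cd4 and Il7r between the fed diets are the calls, and 9 of 10 points lie below 0 in the comparison of the fasted diets.

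In fasted fat the same 2 genes had the largest differences, but none of the 10 passed, against 2.82% of all genes (1.63% higher and 1.19% lower). With edgeR, 5 had an unadjusted p under 0.05. Cd4 was higher with Ensure in all 5 libraries, with a log2 fold change of 1.35 ± 0.43 (SE) and an edgeR adjusted p of 0.0977. Il7r had -2.66 ± 0.77, with an adjusted p of 0.0694, and its groups overlapped. Cd2 had -0.78 ± 0.23 with an adjusted p of 0.0782, Cd8a -1.10 ± 0.43 with 0.163, and Cd3g -0.83 ± 0.34 with 0.191.

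Of the 10 estimates between the fasted diets 9 were negative, with a median of -0.79 beside 0.02 over all genes. Cd4, Cd2 and Cd8a separated the diets, as did 3.99% of all genes (2.51% higher and 1.48% lower). DESeq2 called 3 of the genes, Cd2, Cd4 and Il7r, and limma called 1, Il7r. Leaving out Ensure fasted 8 made Il7r -3.82, with an edgeR adjusted p of 0.0108, and leaving out HFD fasted 24 made it -3.02, with 0.0303. The fasted groups share no lane, so diet and lane cannot be told apart there. With lane as a term the Cd4 estimate was -0.022, but that fit links the diets only through Ensure fed 18. That estimate therefore also rests on that 1 library, whose own deviation cannot be told from an effect of diet or lane.

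Of 103 further genes in 7 lists of T cell function, 94 were tested. Between fed and fasted HFD libraries 1 was higher after fasting, Il15ra, the interleukin-15 receptor chain gene (log2 fold change 0.63, edgeR adjusted p 0.0343), and 1 lower, Zbtb7b, the factor of CD4 lineage choice (-0.41, adjusted p 0.0449). In both genes the groups did not overlap: Il15ra stood at 22.1 to 36.0 CPM in fed and 42.1 to 52.8 CPM in fasted libraries. Neither call held with lane as a term, in a fit of these 2 groups alone or without the 5 tract-rich libraries, where the adjusted p was 0.107 and 0.0707. Both groups were sequenced in lane 7 alone, so the lane term could not adjust this comparison for lane. With each of the 19 libraries left out in turn, Il15ra passed in 12 fits and Zbtb7b in 3, the adjusted p reaching 0.111 and 0.200, both without HFD fed 25. These 2 calls are 2.13% of the 94 genes, beside 1.22% of all genes, and the median was 0.24 beside 0.06 over all genes. Values of list genes are those of whole tissue: over the 19 libraries Il15ra stood at 20.5 to 52.8 CPM, beside a CD3 sum of 2.24 to 7.36 CPM. The part of T cells in the values of the list genes was not tested.

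With Ensure, 5 of the 94 rose on fasting and 4 fell, which is 9.57% beside 20.3% of all genes. Lag3, an inhibitory receptor gene, fell by 0.91 on the log2 scale (adjusted p 0.00109), from 7.80 to 10.1 CPM in fed to 3.25 to 5.96 CPM in fasted libraries. Il7, the ligand of the receptor that Il7r encodes, fell by 0.92 (adjusted p 0.00597), Zbtb7b by 0.41 (0.00245) and the signal transducer Stat5a by 0.30 (0.0200). Lag3, Zbtb7b and Il7 separated the groups, as did Socs1 among those that rose. Of the rises, Socs1, a brake on cytokine signalling, stood 0.84 higher on the log2 scale (adjusted p 0.0263) and Klf2, a factor of lymphocyte traffic that endothelium also expresses, 0.55 (0.0316). With 1 library left out Socs1 passed in 15 of 19 fits (adjusted p 0.0874 without Ensure fasted 5) and Klf2 in 12 (0.0752 without Ensure fasted 17).

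The 2 largest rises in these lists rested on 1 library rich in epididymal genes. Cd52, a lymphocyte surface gene that the epididymis also expresses, reached 1681 CPM in Ensure fasted 5 and Gata3, a factor of helper and innate lymphoid cells, 80.2 CPM, giving log2 fold changes of 3.08 (adjusted p 0.0345) and 3.54 (0.0208). Without that library they were 0.16 and -0.23, with adjusted p of 0.884 and 0.729. Without the 5 tract-rich libraries, Lag3, Il7 and Stat5a kept an adjusted p under 0.05, at 0.0180, 0.0492 and 0.0476, and Klf2, Socs1 and Zbtb7b did not, at 0.0888, 0.332 and 0.0629.

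No gene of the 94 passed in the difference of the fasting responses (0 with edgeR, 3 at an unadjusted p under 0.05) or between the fed diets (0 with edgeR, beside 4.26% of all genes, and 16 at an unadjusted p under 0.05). In the difference, genes among the 2 of smallest p in each list, Lat, Btla, Cd52, Gata3, Eomes, Il2ra, Tigit, Gzma, Gzmb, Itgae, Il15ra and Bcl2, had adjusted p of 0.559 to 0.799. Between the fed diets the lowest was that of Il1rl1, the interleukin-33 receptor gene of adipose regulatory T cells, with a log2 fold change of -1.14 and an adjusted p of 0.0608, and Ccr7, Themis, Rhoh, Thy1, Cd27, Zbtb7b, Il10, Klrd1, Cst7, Itgal, Il15ra and Tslp had 0.0939 to 0.366. The median over the 94 genes was -0.19 between the fed diets, beside -0.04 over all genes.

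Between the fasted diets 4 of the 94 (4.26%, beside 2.82% of all genes) were lower with Ensure and 0 higher, with 29 at an unadjusted p under 0.05 and a median of -0.41 beside 0.02 over all genes. They were Il15ra (log2 fold change -0.76, adjusted p 0.00538), Ccr7, the lymph node homing receptor gene (-1.67, 0.0132), Lat, the adaptor of the receptor signal (-1.88, 0.0269), and Btla, an inhibitory receptor gene of T and B cells (-1.05, 0.0369). Ccr7 stood at 2.48, 4.23, 4.55 and 6.24 CPM with HFD and at 0.900, 1.08, 1.58, 1.61 and 1.67 CPM with Ensure, so that the diets did not overlap. Lat was highest in HFD fasted 28, at 9.37 CPM, and overlapped. Without the 5 tract-rich libraries Ccr7, Lat and Il15ra passed and Btla did not (adjusted p 0.158), and with lane as a term none of the 4 did. With 1 library left out Lat passed in 16 of 19 fits (adjusted p 0.0927 without HFD fasted 28) and Btla in 14 (0.0883 without HFD fasted 23).

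Single markers of other cells also differed between the diets. Of 12 macrophage genes, 2 were lower with Ensure in fed fat (2.17% of all genes were), Trem2 (log2 fold change -3.07, adjusted p 0.0364) and Itgax (-2.56, 0.0123), and 1, Itgax, in fasted fat (-3.15, 0.00864; 1.19% of all genes). Trem2 passed in 10 of the 19 fits with 1 library left out (adjusted p 0.0955 without HFD fed 27). The other macrophage genes were not called, and 4 of the 12 estimates were positive in fed and 6 in fasted fat, with medians of -0.22 and -0.014. Cd163, a scavenger receptor gene of macrophages, had the opposite sign in fasted fat, at 11.1 to 73.9 CPM with HFD and 55.2 to 191 CPM with Ensure (log2 fold change 1.43, adjusted p 0.0755). The summed macrophage level overlapped between all groups, at 1945 to 3504 CPM in HFD fed, 1525 to 6985 in HFD fasted, 1751 to 3271 in Ensure fed and 1041 to 4992 in Ensure fasted libraries. None of 10 dendritic cell genes passed in any comparison with edgeR, and their sum was 82.6 to 246 CPM. The part of these cells in the Cd4 and Il7r values was not tested.

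B cell genes had their highest mean sum, 50.5 CPM, in HFD fasted fat. Their summed level there, 36.3 to 64.7 CPM, was above all Ensure libraries, which had 12.8 to 31.0 CPM. This separation rested on Cd22 in the lowest HFD fasted library, HFD fasted 28, where it made up 26.5 of the 36.3 CPM. In the highest Ensure library, Ensure fed 16, Cd22 made up 4.45 of the 31.0 CPM. Cd22 passed between the fasted diets (log2 fold change -1.80, adjusted p 0.0269). With 1 library left out it passed in 15 of 19 fits (0.0774 without HFD fasted 28). The chemokine gene Cxcl13, which attracts B cells, was higher in Ensure fed than in HFD fed fat, at 78.1 ± 71.0 CPM (SD, n = 6) against 2.84 ± 0.874 (n = 4), a log2 fold change of 4.77 with an adjusted p of 0.00665, and with lane as a term it was 1.76 and not called. Cxcl13 is also 1 of 8 listed lymph node genes, of which 7 were in the files and 3 tested, and it was the one called. The summed level of the list was 4.97 to 8.55 CPM in HFD fed, 3.73 to 24.8 in HFD fasted, 12.7 to 207 in Ensure fed and 24.8 to 94.5 in Ensure fasted libraries. Cxcl13 alone made up most of this sum in every Ensure library, with 203 of 207 CPM in Ensure fed 9 and 23.3 of 24.8 CPM in Ensure fasted 8. The sum therefore largely repeats Cxcl13. Madcam1, an adhesion gene of mucosal vessels, was too low to be tested. It stood at 0 to 0.158 CPM in HFD fed and 0.346 to 0.975 CPM in Ensure fed fat. After fasting it was 0 to 0.261 CPM with HFD and 0.132 to 0.560 CPM with Ensure, which overlapped. Madcam1 was at 0 in 1 HFD fed and 2 HFD fasted libraries and above 0 in all 11 Ensure libraries. The HFD fed libraries held 8 counts of it in total. Ccl21a was at 0 counts in all 19 libraries, Ccl19 in 18 and Glycam1 in 15. The part of lymph node tissue in the T cell values was not tested.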

How the data were processed

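The authors deposited whole-number read counts per gene symbol for each of the 19 libraries, not normalized. Per the submitters' processing notes they used bcl2fastq 1.8.4, TopHat2 2.1 and HTSeq 0.6.1 on build mm9; their settings, such as strand, are not given in the labels or files, so genes that overlap another gene are uncertain. The 5 summary lines of HTSeq entered neither library sizes nor tests; reads outside genes were 13.0 to 17.3% of a library. Groups came from the labels. Chi-square per gene was 6.77 to 272 over the 37 within-group pairs, above sampling noise, so all 19 were kept as separate libraries.

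All 19 libraries were fitted once with 4 groups in edgeR 4.0.16 (R 4.3.3): TMM scaling, filterByExpr at a minimum count of 10 (16015 genes), quasi-likelihood F test, Benjamini-Hochberg adjustment over all genes tested, calls at an adjusted p under 0.05. The fit was tested on simulated counts. A standard error is the size of a log2 fold change over the root of its F statistic. CPM values were computed from the deposited counts, and per-kilobase levels use GENCODE vM21 exon lengths. Ratios and likenesses are descriptions with no test. The floor covers counting error only, whereas the standard errors also take in the spread between libraries.

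The 10 genes and all lists were chosen with earlier results of these data known. Named were the 10 genes, list genes called in any of 5 comparisons, the 2 of smallest p per T cell list in the 2 comparisons where no such gene was called, the 8 nearest to the CD3 sum, and defining markers of other cells; 175 of 176 list symbols were found. Some genes that this rule names are not reported here. Alternatives were no filter, library size alone, DESeq2 size factors, at least 1 CPM in at least 4 libraries, DESeq2 1.42.0, limma 3.58.1 voom with quality weights, lane as a term, the 2 groups alone, and leaving out tract-rich, epithelium-rich and single libraries.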

Additional observations from a re-analysis of the deposited data

Results flagged for a closer look

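In each of the 4 groups, the highest and lowest library of every T cell gene were compared with the rest by Dixon's gap ratio, which is 40 tests; chance flags about 1 group in 20, and 3 were flagged. Il7r stood at 43.1 CPM in Ensure fasted 8, above the other 4 libraries of that group (gap ratio 0.831); Trem2 was 101 CPM there. Cd8a stood at 3.15 CPM in Ensure fed 16, above the other 5 (0.685). Cd2 stood at 2.19 CPM in Ensure fed 18, below the other 5 (0.690), the library that also had the lowest CD3 sum and was the Ensure library of lane 7.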

How the results depend on the processing

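No T cell gene was called for fasting with HFD, fasting with Ensure or their difference under any alternative run. Between the fed diets, where 2 were called, limma called 5, and lane as a term and leaving out the 8 tract-rich or epithelium-rich libraries each gave 0; leaving out 1 library gave 1 to 2, Il7r being lost without HFD fed 21 (adjusted p 0.0553) or 27 (0.05005). Between the fasted diets, where 0 were called, library size alone gave 1 (Cd2), DESeq2 3, limma 1 and leaving out the 8 libraries 1 (both Il7r); leaving out 1 library gave 0 to 1. At least 1 CPM in at least 4 libraries left 9 of the genes, without Foxp3. Over all genes the calls, in the order fasting with HFD, fasting with Ensure, fed diets and fasted diets, were 195, 3255, 682 and 452, against 62, 760, 2 and 0 with lane, 1, 3602, 2933 and 1 in the 2 groups alone, 633, 4390, 1551 and 1295 with DESeq2, 2974, 5638, 5441 and 3418 with limma, 143, 1145, 528 and 617 without the 5 tract-rich libraries, and 910, 772, 213 and 1598 without the 8. For the difference of responses 0 became 65 with DESeq2, 1170 with limma and 1 without the 8.

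The log2 fold changes that changed sign belonged to values that edgeR did not call, other than Cd52 and Gata3, and the cause was not tested. Cd3g between the fed diets, -0.00064, became 0.025 with DESeq2 size factors, 0.0048 with no filter, 0.0035 with the stricter filter, 0.022 with DESeq2 and 0.013 in the 2 groups alone. With limma, fasting with HFD gave -0.084 for Cd3e, -0.044 for Cd2, -0.21 for Cd8b1 and -0.22 for Il7r. Fasting with Ensure gave there 0.48 for Cd3d, 0.17 for Cd2, 0.061 for Lck, 0.079 for Cd4, 0.41 for Cd8a, 0.16 for Cd8b1, -0.033 for Cd52 and -0.044 for Gata3; the difference gave 0.098 for Cd3d, 0.21 for Cd2, 0.14 for Cd8a and 0.37 for Cd8b1. With lane as a term, fasting with Ensure gave 0.66 for Cd3d, 0.023 for Lck, 0.30 for Cd8a and 0.042 for Cd8b1, the difference 0.30 for Cd3d and -0.18 for Cd3e, and the fasted diets -0.022 for Cd4. Without the 5 tract-rich libraries, fasting with Ensure gave 0.21 for Cd3d, -0.086 for Cd3e and 0.10 for Cd2, and the difference -0.45 for Cd3e. Without the 8 libraries, fasting with HFD gave -0.057 for Lck, fasting with Ensure 0.58 for Cd3d, -0.070 for Cd3e, 0.16 for Cd2, 0.17 for Lck, 0.51 for Cd8a and 0.18 for Cd8b1, and the difference 0.30 for Cd3d, -0.55 for Cd3e and 0.23 for Lck.

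Leaving out each library in turn spanned 0 on the log2 scale for Lck (-0.080 to 0.24) and Foxp3 (-0.012 to 0.55) in fasting with HFD, for Cd3d (-0.39 to 0.074), Cd8a (-0.31 to 0.25) and Gata3 (-0.23 to 3.92) in fasting with Ensure, for Cd3e (-0.12 to 0.25), Foxp3 (-0.19 to 0.37) and Il7r (-0.58 to 1.20) in the difference, and for Cd3g (-0.13 to 0.24) between the fed diets. Of 467 values for single T cell genes under the other settings 414, and of 950 with a library left out 912, kept their direction and side of the threshold. No paired analysis was possible because the groups share no replicate numbers. Counts of 3 to 43 per library limit Cd3d, Cd8b1 and Foxp3.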
